A study of Homo sapiens with 8 samples.

Results

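Single guide RNAs (sgRNAs, here called guides) against the carbonic anhydrases were followed in a CRISPR-Cas9 knockout screen for regulators of PRMT5 protein levels. They were taken as all rows of the guide table whose gene symbol is CA followed by a 1- or 2-digit number and, for some, A or B, which gave 84 of 10429 guides, 7 against each of 12 genes. The screen used chemo-resistant COV362 cells, an established line of high-grade serous ovarian cancer, labelled WT and carrying a Cas9 construct. The transduced cells were selected as a single population, split into replicates, cultured, fixed, stained for PRMT5 and sorted into the tails with the most PRMT5 (PRMT5hi, 4 libraries) and the least (PRMT5lo, 4 libraries). Both groups thus share the line, the resistant state, Cas9 and the transduction, and differ only in the sort gate. Because the replicates were divided from cells already carrying guides, the p-values speak to variation between parallel cultures and not between independent transductions. The guide sequences were not analysed here, so where each guide cuts is not given.

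Carbonic anhydrases are zinc enzymes that interconvert carbon dioxide and water with bicarbonate and a proton, and so help to set the pH inside and outside cells. The isoforms differ in place. *CA1*, *CA2*, *CA3*, *CA7* and *CA13* encode cytosolic enzymes, *CA5A* and *CA5B* mitochondrial ones, *CA6* a secreted one, and *CA4*, *CA9*, *CA12* and *CA14* enzymes held at the membrane with the catalytic domain outside the cell. *CA9* is a known target of the hypoxia-inducible factor and, like *CA12*, is found in many solid tumors. Sulfonamide drugs such as acetazolamide inhibit several isoforms.

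By RefSeq on GRCh38.p14, the cytosolic *CA13*, *CA1*, *CA3* and *CA2* lie together on chromosome 8, at 85245458 to 85284073, 85327608 to 85378113, 85438859 to 85449040 and 85464007 to 85481493. *CA7* lies on chromosome 16 at 66844414 to 66854147. Of the mitochondrial pair, *CA5A* is on chromosome 16 at 87881549 to 87936529 and *CA5B* on chromosome X at 15738270 to 15788411. The membrane isoforms are scattered, with *CA4* on chromosome 17 at 60149973 to 60179021, *CA9* on chromosome 9 at 35673928 to 35681159, *CA12* on chromosome 15 at 63321378 to 63381846 and *CA14* on chromosome 1 at 150257774 to 150265078. The secreted *CA6* is also on chromosome 1, at 8945868 to 8975092.

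Each value is the authors' mean CPM (mapped reads of a guide, scaled to the same total in every library) over the 4 libraries of a population, so no value of a single library can be shown. The ratio of a guide is log2 of CPM + 1 in PRMT5lo over CPM + 1 in PRMT5hi, and a negative ratio marks a guide more abundant in PRMT5hi cells, as a guide would be if loss of its target raised PRMT5. This direction is likely rather than settled, since it follows the legend of the study's enrichment plot while its methods text gives the fold change the opposite sign. Under that sign every direction below would turn, *CA2* included, and the sizes and p-values would stay. The added 1 CPM understates the change of scarce guides. Depth recovered from the deposited variances was 16166859 reads over the PRMT5hi libraries and 19117396 over the PRMT5lo libraries. No exact test could be made from pooled values, and the p-values below rest on a t approximation over 4 and 4 libraries. Those with variances from the trend over guides of like abundance are the exception. They were referred to a normal distribution, with the variance treated as known. Intervals of a guide are 95% intervals from the authors' variances between libraries, and an SD of a gene is over its guides, which are not replicates. Intervals of a mean over guides, or of a difference of means, treat the errors of the guides as independent. All guides were read in the same libraries, so these intervals may be too narrow or too wide.

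As a family the carbonic anhydrase guides lay evenly between the populations. Of the 84 guides, 44 had a ratio below 0 and 40 above, with a median of -0.03 and an SD of 0.35, beside a median of -0.0018 and an SD of 0.29 over the 9929 targeting guides and a median of 0.011 over the 500 control guides. At a one-sided p under 0.05 by the recomputed CB2 test, 6 guides (7.14%) were higher in PRMT5hi, where 6% of all targeting guides and 6.6% of control guides were. Toward PRMT5lo it was 5 guides (5.95%), against 5.66% of all targeting guides and 9% of control guides. Both shares are near the background, and the other 73 guides passed in neither direction. The 6 guides higher in PRMT5hi were CA2_2, CA2_3, CA2_5, CA13_1, CA13_3 and CA6_3. Of these, 5 target cytosolic isoforms, which hold 35 of the 84 guides, and 3 target *CA2* alone. The 5 guides higher in PRMT5lo were CA1_5, CA3_1, CA7_1, CA5A_5 and CA6_6, and 3 of them are cytosolic too. Without *CA2*, 2 of 28 cytosolic guides (7.14%) passed toward PRMT5hi and 3 (10.7%) toward PRMT5lo. After one-sided Benjamini-Hochberg adjustment over all 10429 guides none of the 84 passed 0.05 in either direction, where 0% of targeting guides passed toward PRMT5hi and 0.0403% toward PRMT5lo. With a two-sided p, CA2_2 alone passed, with an adjusted p of 0.0399, beside 0.0504% of targeting guides. That pass was lost, with an adjusted two-sided p of 0.667, when variances came from the trend over guides of like abundance.

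At the level of genes, *CA2* was the 1 carbonic anhydrase of 12 that passed the thresholds of the study's plot, a one-sided p under 0.01 by Fisher's method over the guides and a mean ratio beyond 0.25. Of all 1420 genes, 0.845% passed toward PRMT5hi. Toward PRMT5lo no carbonic anhydrase passed, beside 0.704% of all genes, and *CA5A* alone had a p under 0.05 there. The methods text sets a stricter p of 0.001 for PRMT5lo, and at 0.001 in both directions *CA2* still passed and no other member did. At that limit 0.352% of all genes passed toward PRMT5hi and 0.141% toward PRMT5lo. With a Benjamini-Hochberg adjusted p under 0.05 and the same limit on the mean, *CA2* still passed, among 0.211% of genes. Means were below 0 for 6 of the genes and above 0 for the other 6, and 11 of the 12 lay within 0.25 of 0. The median of the 12 means was 0.00099, beside -0.0033 over all genes. No carbonic anhydrase had all its guides on the same side of 0, as 1.2% of genes had below 0 and 0.915% above. *CA1* and *CA2* had 6 of 7 guides below 0, which 6.41% of genes matched or exceeded, and *CA7* had 6 of 7 above 0, which 6.97% did. Since *CA2* was known as a called gene when the family was chosen, its count says nothing about the family as a whole.

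The cytosolic isoforms had the lowest median of the classes. Of their 35 guides 22 had a ratio below 0 and 13 above, against 50.2% below and 49.8% above over all targeting guides, with a median of -0.07 (SD 0.36). The mitochondrial isoforms divided evenly, with 7 of 14 guides below 0 and a median of -0.0058 (SD 0.28). Of the 28 guides against membrane isoforms 12 lay below 0, with a median of 0.016 (SD 0.22). Of the membrane guides 0 passed a one-sided p under 0.05, beside the 6% of targeting guides toward PRMT5hi and 5.66% toward PRMT5lo, so a count of 0 among 28 is no result about the class. Of these guides 21.4% had a ratio beyond 0.25, against 40% of the cytosolic guides and 35% of all targeting guides. The mean ratio of cytosolic guides was lower than that of membrane guides by a difference of -0.11 (95% interval -0.25 to 0.03), and than that of mitochondrial guides by a difference of -0.10 (95% interval -0.27 to 0.08). Mitochondrial and membrane guides differed by -0.01 (95% interval -0.19 to 0.17). These intervals carry the spread between libraries alone, all include 0, and do not show that the classes act alike. Without *CA2* the cytosolic median was -0.04 and the difference from membrane guides -0.05 (95% interval -0.20 to 0.10).

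*CA2*, the fast cytosolic isoform found in many tissues, had 6 of 7 guides with a ratio below 0. CA2_2 stood at 156 CPM in PRMT5hi and 102 CPM in PRMT5lo, CA2_5 at 127 and 89.2 CPM, and CA2_3 at 54.7 and 34.6 CPM. These 3 guides had ratios of -0.60, -0.51 and -0.65 and were the ones past a one-sided p of 0.05. The other 4 guides lay much closer to 0. CA2_4 stood at 214 CPM in PRMT5hi and 190 CPM in PRMT5lo, CA2_7 at 97.1 and 90.5 CPM, CA2_1 at 105 and 104 CPM, and CA2_6 at 27.4 and 28.2 CPM. Their ratios were -0.17, -0.10, -0.02 and 0.04. Of the 7 guides only CA2_2 had a 95% interval that excluded 0. That of CA2_5 ran from -1.03 to 0.01 and that of CA2_3 from -1.49 to 0.20. For CA2_7 it ran from -1.14 to 0.94, the widest of the 7, and took in the ratios of all 3 guides past the test. Whether these 3 guides differ from the other 4 was not tested. The mean over all 7 was -0.29 (SD 0.29), a 1.22-fold higher abundance in PRMT5hi cells, with a 95% interval from the spread between libraries of -0.48 to -0.09. By mean ratio *CA2* ranked 26 of 1420 genes toward PRMT5hi, while by Fisher's method it ranked 2, with a p of 4.51e-05 and an adjusted p of 0.0241.

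A single guide, CA2_2, weighed most in the p of *CA2*. Its one-sided p was 7.3e-06, the smallest in the family, and its 95% interval ran from -0.71 to -0.50, the narrowest of the 7. In both populations its deposited variance sat at the lower limit of the method, which reflects read counting alone, and its reads could be recovered as 2509 over the PRMT5hi libraries and 1920 over the PRMT5lo libraries. Of the 84 carbonic anhydrase guides 8 were at this limit in PRMT5hi (9.52%) and 10 in PRMT5lo (11.9%), against 12.1% and 17.6% of all guides. With the variance taken from the trend over guides of like abundance, the upper bound of CA2_2 was -0.21 in place of -0.50. Its one-sided p was 0.00189, from a normal distribution that treats the variance as known. *CA2* still passed the study's thresholds then, with a p of 0.000612 by Fisher's method, though its adjusted p was 0.124. Without CA2_2 the mean was -0.23 and the p 0.0493, and *CA2* no longer passed. Without CA2_3 the mean, at -0.23, was inside the limit of 0.25.

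The cluster of *CA13*, *CA1*, *CA3* and *CA2* on chromosome 8 can also be read as a group. This grouping was made after the values were seen. Of the 28 guides against these neighbors 21 had a ratio below 0 (75%), with a median of -0.10, against 23 of 56 guides against the other isoforms (41.1%), with a median of 0.03, and 50.2% of all targeting guides. Without *CA2* it was 15 of 21, with a mean ratio of -0.05. Of these 21 guides, 2 (9.52%) had a one-sided p under 0.05 by the recomputed CB2 test toward PRMT5hi and 2 toward PRMT5lo. The shares of all targeting guides were 6% and 5.66%. Guides toward PRMT5hi were thus the majority for this cluster and the minority elsewhere, and no test was made of it.

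*CA13* encodes a cytosolic isoform and came next to *CA2* among the cytosolic genes, with a mean of -0.16 (SD 0.36). CA13_3 stood at 141 CPM in PRMT5hi and 100.3 CPM in PRMT5lo, with a one-sided p of 0.00526, and CA13_1 at 118 and 85.1 CPM, with a p of 0.0291. Ratios of -0.48 and -0.46 for these were joined by -0.41 for CA13_6 and -0.38 for CA13_2, both of lower abundance and not past the test. Against these stood CA13_4 with 51.3 and 70.7 CPM and a ratio of 0.45, CA13_7 with 0.12 and CA13_5 with 0.02. The guides thus divided 4 to 3, and the gene did not pass the thresholds, with a p of 0.0171 by Fisher's method and an adjusted p of 0.417. Without CA13_4 alone the mean was -0.26 and the p 0.00791, which would pass. The difference of *CA2* from *CA13* was -0.13 (95% interval -0.43 to 0.18), so the pair was not told apart.

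*CA1*, the abundant isoform of red blood cells, shows how far a scarce guide can carry a mean. CA1_5 stood at 5.68 CPM in PRMT5hi and 13.2 CPM in PRMT5lo, about 23.0 and 63.3 reads per library, and had the highest ratio of the 84, 1.09 with a 95% interval of 0.09 to 2.10 and a one-sided p of 0.018. The other 6 guides all had ratios below 0, from -0.30 for CA1_6 at 122 and 99.2 CPM to -0.03 for CA1_1 at 27.4 and 26.8 CPM. CA1_7 stood at 174 and 163 CPM, CA1_3 at 79.9 and 76.8, CA1_4 at 79.3 and 74.8 and CA1_2 at 61.6 and 57.7. None of these 6 passed the test on its own. The mean of *CA1* was 0.06 with CA1_5 and -0.11 without it, and the median was -0.08, so its sign rests on the scarcest guide of the family.

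*CA3*, a muscle isoform of low catalytic activity, had guides at both ends. CA3_7 had the most negative ratio of any cytosolic guide, -0.70, at 101 CPM in PRMT5hi and 62.0 CPM in PRMT5lo, with an interval of -1.67 to 0.27 and a one-sided p of 0.077. In the other direction CA3_1 stood at 80.0 and 116 CPM with a ratio of 0.53 and a p of 0.0445, and CA3_5 had a ratio of 0.36. The other 4 guides had ratios from -0.17 to -0.03, the most abundant of them, CA3_2, standing at 217 and 196 CPM. The mean of -0.04 (SD 0.40) thus averages guides that disagree, and it turned to 0.06 without CA3_7.

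*CA7*, a cytosolic isoform known from the brain, was the cytosolic gene with the opposite lean, with 6 of 7 guides above 0. CA7_1 stood at 71.3 CPM in PRMT5hi and 95.3 CPM in PRMT5lo, a ratio of 0.41 with a one-sided p of 0.048. The next were CA7_3 at 87.5 and 103 CPM with 0.23 and CA7_6 at 52.2 and 59.9 CPM with 0.20. The remaining 4 lay between -0.07 and 0.04, among them CA7_7, the most abundant guide of the family at 287 and 274 CPM. The mean was 0.12 (SD 0.17) and did not pass the thresholds (p toward PRMT5lo of 0.216). From *CA7*, the mean of *CA2* differed by -0.41 (95% interval -0.69 to -0.14). From *CA1* it differed by -0.35 (95% interval -0.65 to -0.05), and from *CA3* by -0.24 (95% interval -0.53 to 0.05). The difference from *CA1* leans on the scarce guide CA1_5, since the mean of *CA1* was 0.06 with it and -0.11 without it. That difference was not recomputed without CA1_5. These pairs were set side by side after the values were seen and are given as intervals only.

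The mitochondrial pair lay on either side of 0, without passing the thresholds. *CA5A*, which supplies bicarbonate to enzymes of the mitochondrial matrix in liver, had guides from -0.42 to 0.50, and *CA5B*, its more widely expressed relative, from -0.35 to 0.16. CA5A_5 stood at 117 CPM in PRMT5hi and 156 CPM in PRMT5lo, a ratio of 0.41 with an interval of 0.19 to 0.63. Its one-sided p of 0.00336 was the smallest toward PRMT5lo among the 84, with an adjusted two-sided p of 0.367 over all guides. Larger ratios belonged to scarcer guides, 0.50 for CA5A_2 at 25.2 and 36.1 CPM and 0.47 for CA5A_3 at 41.7 and 57.9 CPM, neither past the test. CA5A_6 had 0.13 and CA5A_4 0.03, while CA5A_7 stood at -0.18 and CA5A_1, at 91.2 and 68.1 CPM, at -0.42. The mean of *CA5A* was 0.13 (SD 0.35), and its combined p toward PRMT5lo of 0.0335, or 0.508 after adjustment, missed the limit of 0.01. All 7 guides against *CA5B* stood at 87.1 CPM or more in both populations, and none passed the test. Its most negative guide, CA5B_7, stood at 117 and 91.1 CPM (ratio -0.35) and its most positive, CA5B_2, at 87.1 and 97.2 CPM (0.16). The other 5 lay between -0.13 and 0.05, giving a mean of -0.06 (SD 0.16). *CA5A* and *CA5B* differed by 0.20 (95% interval -0.11 to 0.50), which includes 0.

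Guides against membrane isoforms had the smallest SD of the classes, and *CA9* and *CA4* the smallest of its genes. *CA9*, the hypoxia-induced isoform, had the smallest SD over guides of the family, 0.14, which ranked 89 from the smallest among 1420 genes. Its guides ran from CA9_2 at 60.3 CPM in PRMT5hi and 50.2 CPM in PRMT5lo (ratio -0.26) to CA9_5 at 197 and 222 CPM (0.17). CA9_3 had a ratio of -0.18, and the other 4 lay between -0.07 and 0.04, with CA9_1 at 75.1 and 75.2 CPM. The mean was -0.05 with an interval of -0.27 to 0.17. *CA4*, anchored to the outer membrane face through a lipid, had 5 of 7 guides above 0, a mean of 0.08 (SD 0.17) and its largest ratio, 0.38, in its scarcest guide, CA4_7 at 30.4 and 39.9 CPM. Its most abundant guide, CA4_6, stood at 136 and 157 CPM (0.21), and the other 5 lay between -0.09 and 0.09.

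*CA12*, a transmembrane isoform often found together with *CA9* in tumors, had a mean of 0.11 (SD 0.29). The lean sat in CA12_2 at 29.8 CPM in PRMT5hi and 45.8 CPM in PRMT5lo (ratio 0.60) and CA12_5 at 57.0 and 76.4 CPM (0.42). The other 5 lay between -0.19 and 0.06, among them CA12_6, the most abundant at 194 and 176 CPM, with -0.14. *CA12* differed from *CA9* by 0.16 (95% interval -0.13 to 0.45). *CA14*, also transmembrane, had a mean of 0.05 (SD 0.28), with CA14_5 at 29.7 and 39.2 CPM (0.39) at the top and CA14_1 at 70.7 and 50.9 CPM (-0.47) at the bottom. Between these, CA14_4 had 0.22, CA14_7 0.21, CA14_6 0.07, CA14_3 -0.04 and CA14_2 -0.05. Neither gene passed the thresholds, and the one-sided p toward PRMT5lo was 0.365 for *CA12* and 0.497 for *CA14*.

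*CA6*, the isoform secreted in saliva and milk, had the most discordant guides of the family. Its SD of 0.70 ranked 4 from the largest among the 1420 genes. CA6_3 stood at 40.2 CPM in PRMT5hi and 15.3 CPM in PRMT5lo, the most negative ratio of the 84 at -1.34 with a 95% interval of -2.37 to -0.31 and a one-sided p of 0.00968. CA6_4 at 16.6 and 8.88 CPM had -0.83 and CA6_1 at 56.8 and 35.1 CPM had -0.68, neither past the test. The other 4 guides stood on the opposite side. CA6_6 at 162 and 175 CPM had a ratio of 0.11 and, with its variance in PRMT5hi at the lower limit, passed toward PRMT5lo with a p of 0.0131 and an interval of 0.02 to 0.21, the narrowest of the gene. CA6_5 stood at 133 and 149 CPM (0.16), CA6_2 at 30.4 and 38.4 CPM (0.33) and CA6_7 at 58.7 and 85.9 CPM (0.54). The mean of -0.24 was the second most negative of the family, yet the median was 0.11. Summed as CPM, the gene's guides were no higher in PRMT5hi, with a mean of 71.1 CPM there and 72.6 CPM in PRMT5lo. The gene passed in neither direction (Fisher's method, p of 0.107 toward PRMT5hi and 0.165 toward PRMT5lo).

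Spread followed abundance across the family. The 45 carbonic anhydrase guides below the median abundance of targeting guides, 85.3 CPM, had an SD of 0.43, and the 39 at or above it 0.24. Over all targeting guides the same split gave SDs of 0.35 and 0.23. Of the 30 carbonic anhydrase guides with a ratio beyond 0.25 either way, 22 were in the less abundant part. For 7 of the 12 genes, the SD over guides was larger than the typical standard error of a guide from the spread between libraries. *CA6* (SD 0.70 against 0.34) and *CA1* (0.46 against 0.30) exceeded it most, while *CA9* (0.14 against 0.28) and *CA4* (0.17 against 0.28) lay well under it.

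Library genes that handle acid, bicarbonate or oxygen alongside the carbonic anhydrases were set beside them. Of 14 such genes 0 passed in either direction, where 0.845% of all genes passed toward PRMT5hi and 0.704% toward PRMT5lo, so a count of 0 is no result about this list. Of the 14, 8 had a mean above 0 and 6 below, and the median of their means was 0.0076. The list held 7 transporters of acid or base and their partners, 6 genes of oxygen sensing, and *CPS1*, the mitochondrial enzyme that consumes bicarbonate in the urea cycle. *CPS1* had the lowest mean of the list, -0.15 (SD 0.24), with a p of 0.0451 toward PRMT5hi by Fisher's method and an adjusted p of 0.517. The highest mean was 0.19 (SD 0.27) for *EGLN1*, the prolyl hydroxylase that marks hypoxia-inducible factor for degradation, with a p of 0.118 toward PRMT5lo. *HIF1A*, the oxygen-regulated subunit of the factor that induces *CA9*, had a mean of 0.06, and its partner *ARNT* 0.05. *EGLN3*, another prolyl hydroxylase of this factor, had a p of 0.0111 toward PRMT5lo (0.322 after adjustment) with a mean of -0.04. *HIF1A*, *ARNT* and *EGLN3* were chosen after their values were seen.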

How the data were processed

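The authors assigned single-end reads to the sgRNA sequences of the library and counted reads per guide, and their test between PRMT5hi and PRMT5lo was that of CB2. FastQC and hg38 are named in the submitters' processing notes, and no version of CB2, of FastQC or of the mapper was found. CPM values were deposited by the authors as means over the 4 libraries of each population. The deposited fraction of a guide is the authors' estimate of its share of reads in a population, and beside it stands the variance of that estimate. Remaining columns, and a table per gene, carry the authors' fold changes and p-values and were not used. No library has a column of its own, so the spread between libraries is known only through these variances, and no count test was possible. Which column belongs to which population was read from the legend of the enrichment plot, whereas the methods text describes the fold change with the opposite sign.

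From these values the guide test was recomputed over all 10429 guides with Python 3.11.15, NumPy 2.4.6, pandas 2.3.3 and SciPy 1.17.1, dividing the difference of both fractions by its standard error and using a t distribution with Welch's degrees of freedom. Variances from the trend were treated as known, with a normal distribution in place of the t. One-sided guide p-values were combined per gene by Fisher's method, and Benjamini-Hochberg adjustment covered 10429 guides or 1420 genes. Control guides were not counted as a gene. A gene was called at p under 0.01 and a mean beyond 0.25. The intervals use the variances by the delta method, and those over several guides take the errors of the guides as independent. Depth was recovered from guides at the smallest variance, where 100% of the read totals came out whole within 0.05 reads. Reads amplified by PCR and carrying no molecular identifier are not independent molecules, so depth bounds the counting error alone. The scripts were tested on simulated data.

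All 12 carbonic anhydrase genes and their guides are named. Of the 14 acid-base and oxygen genes none was called, and those with the highest and lowest mean are named. Besides these, *HIF1A*, *ARNT* and *EGLN3* of the list of 14 are named, chosen after their values were seen. The values of 1 gene of that list are not reported here. The members and lists were chosen with earlier results of these data known. Coordinates are from RefSeq for GRCh38.p14, in which all 12 symbols matched.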

Additional observations from a re-analysis of the deposited data

How the results depend on the processing

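The call of *CA2* held with Stouffer's method and with variances from the trend. It also held with 5 or 10 CPM in place of 1, with means of -0.27 and -0.26. The added CPM enters the mean alone, so the p could not change. A minimum of 20 CPM left *CA2* as it was, its scarcest guide standing at 27.8 CPM. Centring on the control median, which was above 0, could only take the mean further out, to -0.30. The minimum and the centring are thus no check of the call. An adjusted p under 0.05 and, added after seeing the data, a p under 0.001 were stricter limits that the main values already met. The adjusted p of *CA2*, 0.0241 in the report, was 0.101 with Stouffer's method and 0.124 with variances from the trend, so the adjusted call was lost under both. With the median over guides its value was -0.17 and 0 carbonic anhydrase genes were called in PRMT5hi. With each guide left out in turn the mean of *CA2* ran from -0.34 to -0.23, and the number of carbonic anhydrase genes called in PRMT5hi from 0 (without CA2_2 or CA2_3) to 2 (*CA13* joining without CA13_4). At an adjusted one-sided p under 0.05, 0 guides passed in either direction. Leaving out *CA2*, chosen after seeing the data, left 3 of 77 guides higher in PRMT5hi (3.9%), against 6% of targeting guides. Of 132 values of the other 11 gene means under the alternatives, all moved by less than the SD over the gene's guides. Leaving out a guide or taking the median cannot move a mean by as much as this SD. That limit is therefore no check of stability for them. Of the 132 values 7 changed sign, for *CA1*, *CA3*, *CA6* and *CA14*. The medians of mitochondrial and secreted guides also changed sign when taken as means (0.04 and -0.24). No paired analysis was possible because the deposited columns pool the 4 libraries of a population, for the same reason no library could be left out. Leaving out guides that match elsewhere in the genome was not run, since no guide sequence was used here. Depth limits the scarcest guides most, 2 of the 84 being under 20 CPM.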
